A study of Mus musculus with 9 samples.

Results

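The epithelial chemokines described here are 9 mouse genes, Cxcl1, Cxcl2, Cxcl5, Cxcl10, Cxcl16, Ccl20, Ccl25, Ccl28 and Cx3cl1, chosen by symbol and each matched to a single Ensembl identifier among the 46517 genes of the count tables. Their messenger RNA was followed in colonies of mouse intestinal stem cells kept for 4 days in non-degradable PEG, in degradable PEG or in Matrigel, with 3 sequencing libraries per matrix and 9 in all. PEG (polyethylene glycol) gels are synthetic hydrogels, here of a kind that cells can break down and of a kind that they cannot, and Matrigel is a basement membrane extract from a mouse tumour. Dissociated cells formed colonies within the gels, and all 3 groups were expanded with R-spondin, noggin, EGF, CHIR99021 (an inhibitor of the kinase GSK3 that turns on Wnt signalling) and valproic acid (a histone deacetylase inhibitor). No genetic change was named for any group. The sources used here do not give the strain, age or number of mice or what the PEG gels were made of. They also do not say whether the 3 libraries of 1 matrix stem from different cultures or mice, and p-values therefore measure the spread between these libraries, which may be technical.

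Chemokines are small secreted or membrane-held proteins that steer white blood cells along a gradient by binding receptors on their surface. The intestinal epithelium makes some of them constantly, such as Ccl25 and Ccl28, which guide lymphocytes and antibody-producing cells to the mucosa. It makes others when it senses microbes, cytokines or injury, such as the neutrophil attractants Cxcl1, Cxcl2 and Cxcl5 and the Ccr6 ligand Ccl20. The inducible kind are classical targets of the transcription factor NF-kB, and their messenger RNAs are short-lived.

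Each library held 38016227 to 47211981 reads assigned to genes, and 14870 genes passed the filter on low counts, all 9 chemokine genes among them. Levels are given as reads of a gene per 1000000 assigned reads (CPM), after TMM scaling of library sizes (trimmed mean of M values). A gene was called where its adjusted p was under 0.05. Correlations of log2 CPM were 0.991 to 0.995 between libraries of 1 matrix and 0.969 to 0.993 between matrices. Markers of epithelium were present in every library, with a summed level over 8 genes of 5541 to 6685 CPM in non-degradable PEG, 6082 to 6867 CPM in degradable PEG and 5227 to 5500 CPM in Matrigel. Mitochondrially encoded transcripts took 3.92% to 4.51% of reads in non-degradable PEG, 3.20% to 4.41% in degradable PEG and 3.00% to 3.99% in Matrigel.

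In degradable PEG, 6 of the 9 chemokine genes rose against Matrigel and none fell, where 7.42% of all tested genes rose and 4.79% fell. The 6 were the neutrophil attractants Cxcl1, Cxcl2 and Cxcl5, the T cell attractants Cxcl10 and Cxcl16, and Ccl20. In non-degradable PEG, 2 of the 9, Cxcl1 and Cxcl16, rose against Matrigel and none fell, where 9.71% of all tested genes rose and 7.13% fell. Set directly against degradable PEG, non-degradable PEG had 4 of the 9 lower (Cxcl2, Cxcl5, Cxcl10 and Ccl20) and none higher, where 0.464% of all tested genes were lower and 0.814% higher. The 3 genes not called in any of these comparisons were the homeostatic ligands Ccl25 and Ccl28 and the membrane-tethered Cx3cl1. In the directions with no edgeR call, an unadjusted p under 0.05 was met by Ccl25 alone, lower in degradable PEG than in Matrigel and higher in non-degradable than in degradable PEG, and DESeq2 called 0 genes. With the replicate number as a block, non-degradable PEG had 5 of the 9 higher than Matrigel (adding Cxcl2, Cxcl10 and Cx3cl1), where 14.1% of all tested genes were called higher. For that comparison the count without a block was 1 when replicate 3 of non-degradable PEG or of Matrigel was left out, and 4 without replicate 2 of non-degradable PEG or replicate 1 of degradable PEG. Between the PEG gels it was 0 without replicate 1 of non-degradable PEG or replicate 2 of degradable PEG, 1 without replicate 2 of non-degradable PEG or replicate 3 of degradable PEG, and 2 without Matrigel replicate 3. The comparisons share libraries, so these counts are not independent of each other. Markers of epithelium moved beside them, with 3 of 8 called higher in non-degradable PEG and 6 of 8 in degradable PEG against Matrigel, and 1 lower in non-degradable than in degradable PEG. The keratins Krt19, Krt8 and Krt18 and the tight junction gene Cldn3 had log2 fold changes of 0.62, 0.75, 0.70 and 0.49 in degradable PEG against Matrigel (adjusted p = 0.00265, 0.00154, 0.00417 and 0.0137). Epcam, of the same list and named after its values were seen, was lower in the PEG gels. It had 1183.6, 1114.4 and 1210.5 CPM in non-degradable PEG, 1081.5, 1166.2 and 1184.1 CPM in degradable PEG and 1331.4, 1255.4 and 1247 CPM in Matrigel. In degradable PEG against Matrigel, 1 of the 8 was lower at an unadjusted p under 0.05, and edgeR and DESeq2 called 0 lower. The part of these marker differences in the chemokine results was not tested. In RNA from whole colonies, more cells that make a chemokine and more of its RNA per cell cannot be told apart.

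The size of the changes can be set beside that of all genes. The median log2 fold change of the 9 genes was 0.49 for non-degradable PEG against Matrigel, 1.39 for degradable PEG against Matrigel and -1.34 for non-degradable against degradable PEG. Over all tested genes it was -0.0021, -0.016 and 0.0033 in the same order. The summed level of the 9 genes was 150.2, 130.9 and 183.1 CPM in non-degradable PEG, 169.2, 204.8 and 224.0 CPM in degradable PEG and 113.5, 112.8 and 114.4 CPM in Matrigel. The Matrigel sums lay close together and below every PEG library, and the ranges of the 2 PEG gels overlapped. Gene by gene, every non-degradable PEG library was above every Matrigel library for 4 of the 9 (Cxcl1, Cxcl10, Cxcl16 and Cx3cl1), where 21.8% of all tested genes were so and 21.6% the other way. Every degradable PEG library was above every Matrigel library for 7, all but Ccl25 and Ccl28, where 15.6% of all tested genes were so and 14.8% the other way. Every non-degradable PEG library was below every degradable PEG library for 6 and above for Ccl25, where 9.02% of all tested genes were below and 10% above.

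**Figure D1:**
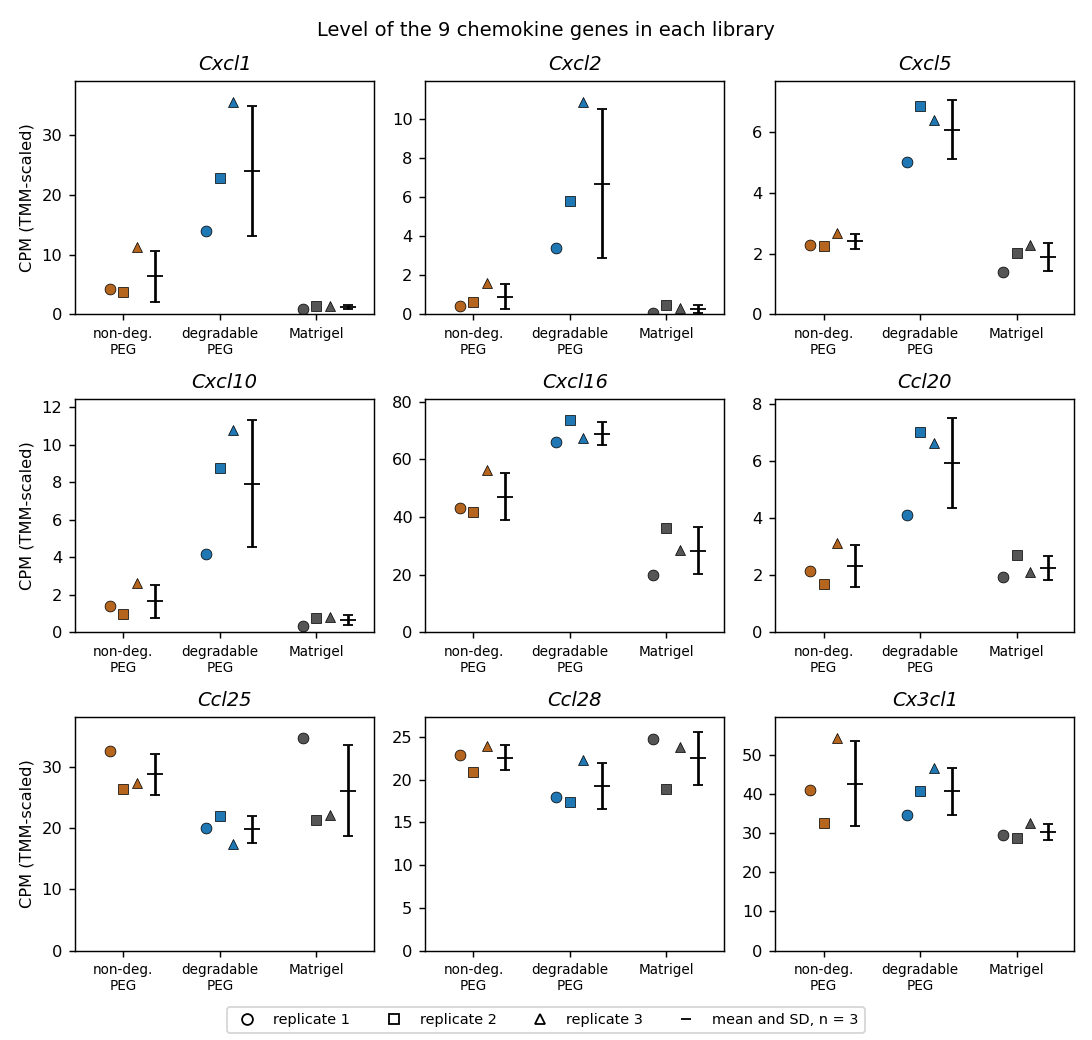
Level of each chemokine gene in each library, in TMM-scaled CPM on linear axes that start at 0, with non-degradable PEG, degradable PEG and Matrigel from left to right. Symbols mark the replicate number and the bar gives the mean and SD of 3 libraries. For Cxcl1, Cxcl2, Cxcl5, Cxcl10, Cxcl16 and Ccl20, all 3 degradable PEG libraries sit above the other 6, which is not so for Ccl25, Ccl28 and Cx3cl1.

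The neutrophil attractants Cxcl1, Cxcl2 and Cxcl5 bind the receptor Cxcr2. They lie in 1 cluster on chromosome 5, Cxcl5 at chr5:90759360-90761624, Cxcl1 at chr5:90891241-90893115 and Cxcl2 at chr5:90903871-90905938, all on the plus strand of GRCm38. RefSeq promoters of 7 of the 9 genes were found (build GRCm38.p6), without Cxcl5 and Cxcl16, and the 250 bases before the transcription start were searched on both strands for kappa-B-like letters, the kind that NF-kB binds. The narrow form searched was GGGA, any 4 bases and CC, held by 17.6% of all 32851 RefSeq promoter windows, and the wide form was GGG, any 5 bases and CC, which contains the narrow one and was held by 45.8%. The windows of Cxcl1 (chr5:90890995-90891244, plus strand) and Cxcl2 (chr5:90903649-90903898, plus strand) are shown because both genes had the largest fold changes of the 9 against Matrigel, with capitals at every match to the wide form or to GAAA, any 2 bases and GAAA, an interferon-response-like motif:
Cxcl1: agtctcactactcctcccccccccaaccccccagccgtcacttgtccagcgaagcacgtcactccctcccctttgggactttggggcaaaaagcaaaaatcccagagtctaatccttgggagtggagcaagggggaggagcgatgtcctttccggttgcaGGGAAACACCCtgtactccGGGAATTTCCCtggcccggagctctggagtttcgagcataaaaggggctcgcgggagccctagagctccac
Cxcl2: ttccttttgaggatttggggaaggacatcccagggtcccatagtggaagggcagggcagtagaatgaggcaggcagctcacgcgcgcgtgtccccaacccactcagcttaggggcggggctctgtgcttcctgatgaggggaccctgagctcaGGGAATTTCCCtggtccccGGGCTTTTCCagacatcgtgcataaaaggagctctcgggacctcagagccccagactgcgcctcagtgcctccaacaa
In the Cxcl1 window the matches covered bases -90 to -80 and -71 to -61 from the start, both with the narrow form. In the Cxcl2 window they covered bases -97 to -87, with the narrow form, and -78 to -69, with the wide form only. The same 11 letters, GGGAATTTCCC, stood in both windows. A match describes the letters and is no evidence that a factor was bound there. The annotated starts of Cxcl1 and Cxcl2, bases 90891241 and 90903871, fall inside these windows, whose positions count from the RefSeq start.

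Cxcl1 had 4.23, 3.68 and 11.3 CPM in non-degradable PEG (160, 145 and 492 reads), 13.9, 22.8 and 35.5 CPM in degradable PEG (529, 922 and 1375 reads) and 0.845, 1.39 and 1.45 CPM in Matrigel (33, 66 and 66 reads). The 3 matrices did not overlap, and replicate 3 was the highest library within both PEG gels. Against Matrigel, Cxcl1 rose 5.17-fold in non-degradable PEG (log2 2.37 ± 0.49 SE, adjusted p = 0.00765) and 19.4-fold in degradable PEG (log2 4.28 ± 0.49, adjusted p = 3.35e-04). Without replicate 3 of non-degradable PEG, its log2 fold change against Matrigel was 1.67 (adjusted p = 0.0205). Non-degradable against degradable PEG gave a log2 fold change of -1.91 ± 0.42, which missed the threshold (adjusted p = 0.0577). That comparison passed without replicate 3 of non-degradable PEG (log2 -2.61, adjusted p = 0.00695) or replicate 1 of degradable PEG (log2 -2.19, adjusted p = 0.0383), with upper-quartile scaling (adjusted p = 0.0471) and in DESeq2 (adjusted p = 0.0271).

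Cxcl2, the close relative of Cxcl1, had 0.449, 0.635 and 1.63 CPM in non-degradable PEG (17, 25 and 71 reads), 3.42, 5.81 and 10.9 CPM in degradable PEG (130, 235 and 421 reads) and 0.0512, 0.463 and 0.330 CPM in Matrigel (2, 22 and 15 reads). Every degradable PEG library was above all others, while non-degradable PEG and Matrigel overlapped. Cxcl2 rose 22.8-fold in degradable PEG against Matrigel (log2 4.51 ± 0.63, adjusted p = 0.00110) and was 7.29-fold lower in non-degradable than in degradable PEG (log2 -2.87 ± 0.55, adjusted p = 0.0351). Non-degradable PEG against Matrigel gave a log2 fold change of 1.64 ± 0.69 (adjusted p = 0.125), and with the replicate number as a block 1.61 (adjusted p = 0.0151). Without replicate 3 of non-degradable PEG it was 0.89 (adjusted p = 0.498). The difference between the PEG gels was no longer called without replicate 1 or 2 of non-degradable PEG, replicate 2 or 3 of degradable PEG or replicate 3 of Matrigel (adjusted p = 0.137, 0.105, 0.117, 0.0725 and 0.0533, in that order), and its log2 fold change was -3.62 without replicate 3 of non-degradable PEG. Of the distinct 50-base stretches of Cxcl2 transcripts, 5.84% also occur in Cxcl3, a neighbour that had 4 reads over the 9 libraries.

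Cxcl5, made mainly by epithelial cells, had 2.27, 2.26 and 2.68 CPM in non-degradable PEG, 4.996, 6.85 and 6.38 CPM in degradable PEG and 1.38, 2.02 and 2.29 CPM in Matrigel. The degradable PEG libraries stood above the other 6, with overlap between non-degradable PEG and Matrigel. It rose 3.19-fold in degradable PEG against Matrigel (log2 1.67 ± 0.21, adjusted p = 5.30e-04) and was 2.52-fold lower in non-degradable than in degradable PEG (log2 -1.34 ± 0.20, adjusted p = 0.0152). For non-degradable PEG against Matrigel the log2 fold change was 0.34, with a 95% confidence interval of -0.13 to 0.80 (adjusted p = 0.302). The call between the PEG gels was lost without replicate 1 of non-degradable PEG (adjusted p = 0.0829) or replicate 2 of degradable PEG (adjusted p = 0.0810). Other genes of the same cluster were near silent: Cxcl15 had 4 to 19 reads a library, highest in Matrigel, Ppbp at most 1 and Pf4 none.

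The change was steeper for some attractants than for others. Summed over Cxcl1, Cxcl2 and Cxcl5, levels were 6.95, 6.58 and 15.6 CPM in non-degradable PEG, 22.3, 35.5 and 52.8 CPM in degradable PEG and 2.28, 3.87 and 4.07 CPM in Matrigel, with no overlap between matrices. Of the 9 genes, Cxcl2 spread most between libraries of 1 matrix, its highest library being 3.62 times the lowest in non-degradable PEG, 3.18 times in degradable PEG and 9.04 times in Matrigel. The same ratios were 3.06, 2.55 and 1.72 for Cxcl1, 2.75, 2.58 and 2.51 for Cxcl10 and 1.19, 1.37 and 1.66 for Cxcl5.

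Cxcl10 and Cxcl16 attract T cells, through the receptors Cxcr3 and Cxcr6. Cxcl10, a classical interferon-induced gene at chr5:92346638-92348889 on the minus strand, had 1.40, 0.965 and 2.66 CPM in non-degradable PEG, 4.18, 8.78 and 10.8 CPM in degradable PEG and 0.333, 0.758 and 0.837 CPM in Matrigel. No 2 matrices overlapped. Cxcl10 rose 12.1-fold in degradable PEG against Matrigel (log2 3.60 ± 0.46, adjusted p = 6.58e-04) and was 4.69-fold lower in non-degradable than in degradable PEG (log2 -2.23 ± 0.42, adjusted p = 0.0318). Non-degradable PEG against Matrigel missed the threshold (log2 1.37 ± 0.48, adjusted p = 0.0722) and passed with the replicate block (log2 1.38, adjusted p = 0.0138), without replicate 2 of non-degradable PEG (adjusted p = 0.0454) and without replicate 1 of degradable PEG (adjusted p = 0.0341). The call between the PEG gels was lost without replicate 1 or 2 of non-degradable PEG or replicate 2 or 3 of degradable PEG (adjusted p = 0.137, 0.0860, 0.136 and 0.0721, in that order).

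The Cxcl10 promoter window (chr5:92348890-92349139, minus strand) is shown because it alone among the 7 searched genes held the interferon-response-like motif, which 2.98% of all windows hold:
Cxcl10: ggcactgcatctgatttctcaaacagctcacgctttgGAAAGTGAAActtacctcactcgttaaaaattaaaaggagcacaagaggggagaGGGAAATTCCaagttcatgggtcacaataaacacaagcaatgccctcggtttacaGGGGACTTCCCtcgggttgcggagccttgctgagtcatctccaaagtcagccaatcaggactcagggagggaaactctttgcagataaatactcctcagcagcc
Capitals mark that motif at bases -213 to -204 and the kappa-B-like matches at bases -159 to -150 and -104 to -94, both with the narrow form. The AP-1-like TGANTCA, present in 6.75% of all windows, stood at bases -74 to -68. The neighbouring interferon-induced ligand Cxcl9 had 1.72, 1.65 and 2.50 CPM in non-degradable PEG, 1.95, 2.70 and 2.92 CPM in degradable PEG and 0.768, 1.22 and 1.45 CPM in Matrigel. Cxcl9 rose in degradable PEG against Matrigel (log2 1.13 ± 0.27, adjusted p = 0.0206) and was not called in non-degradable PEG against Matrigel (log2 0.76 ± 0.27, adjusted p = 0.0780).

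Cxcl16 is unusual in that its chemokine domain sits on a membrane stalk from which proteases release it. This gene, at chr11:70453983-70459984 on the minus strand, had 43.1, 41.6 and 56.3 CPM in non-degradable PEG, 65.9, 73.5 and 67.3 CPM in degradable PEG and 19.9, 36.4 and 28.7 CPM in Matrigel. The 3 matrices did not overlap. Cxcl16 rose 1.66-fold in non-degradable PEG (log2 0.73 ± 0.18, adjusted p = 0.0204) and 2.43-fold in degradable PEG (log2 1.28 ± 0.18, adjusted p = 0.00121), each against Matrigel. Its difference between non-degradable and degradable PEG was not called (log2 -0.55, 95% confidence interval -0.95 to -0.16, adjusted p = 0.197), but passed with no filter on low counts (adjusted p = 0.0166). The call in non-degradable PEG was lost without that gel's replicate 3 (adjusted p = 0.0854) or Matrigel replicate 3 (adjusted p = 0.0526). Exons of Cxcl16 share 552 bases with Zmynd15 on the opposite strand, which had 48 to 58 reads in non-degradable PEG, 95 to 143 in degradable PEG and 20 to 48 in Matrigel, against 1631 to 2456, 2506 to 2971 and 777 to 1727 Cxcl16 reads in the same matrices.

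Ccl20 draws dendritic cells and lymphocytes that carry Ccr6, and is made by the epithelium over lymphoid follicles. Located at chr1:83116766-83119167 on the plus strand, Ccl20 had 2.17, 1.70 and 3.12 CPM in non-degradable PEG, 4.13, 7.03 and 6.64 CPM in degradable PEG and 1.95, 2.72 and 2.11 CPM in Matrigel. Only degradable PEG stood apart from the other matrices, which overlapped. Ccl20 rose 2.62-fold in degradable PEG against Matrigel (log2 1.39 ± 0.26, adjusted p = 0.00564) and was 2.54-fold lower in non-degradable than in degradable PEG (log2 -1.34 ± 0.26, adjusted p = 0.0355). Non-degradable PEG against Matrigel gave a log2 fold change of 0.045, with a 95% confidence interval of -0.55 to 0.64 (adjusted p = 0.928). The call between the PEG gels was lost without replicate 1 or 2 of non-degradable PEG, replicate 2 or 3 of degradable PEG or replicate 3 of Matrigel (adjusted p = 0.144, 0.1001, 0.157, 0.0805 and 0.0541, in that order), and when Matrigel was left out of the fit (adjusted p = 0.0524). The Ccl20 window (chr1:83116516-83116765, plus strand) held overlapping kappa-B-like matches at bases -82 to -71, the narrow form among them, in capitals:
Ccl20: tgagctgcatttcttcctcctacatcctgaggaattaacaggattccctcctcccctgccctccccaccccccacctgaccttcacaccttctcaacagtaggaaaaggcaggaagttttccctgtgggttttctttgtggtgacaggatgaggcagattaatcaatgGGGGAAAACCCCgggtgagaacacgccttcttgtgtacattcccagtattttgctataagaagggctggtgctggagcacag

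Markers of the epithelium over follicles and its M cells were measured beside Ccl20. Of 10 such genes, 8 were tested. In degradable PEG against Matrigel, 4 rose and 1 fell, where 7.42% of all tested genes rose and 4.79% fell. In non-degradable PEG against Matrigel, 2 rose and 1 fell, where 9.71% of all tested genes rose and 7.13% fell. Between the PEG gels, 1 was lower in non-degradable PEG, where 0.464% of all tested genes were lower. The summed level of the 10 genes was 469 to 498 CPM in non-degradable PEG, 569 to 618 CPM in degradable PEG and 507 to 515 CPM in Matrigel. Nearly all of it came from genes of the list other than Gp2, Sox8, Spib and Ccl9. Sox8, named after its values were seen, had 16 reads over all libraries. The M cell factor Spib had 5, 5 and 3 reads in non-degradable PEG, 14, 19 and 10 reads in degradable PEG and 1, 4 and 2 in Matrigel, and the defining surface protein Gp2 had 0 reads in every library. Ccl9, a chemokine of that epithelium, had 22, 7 and 20 reads in non-degradable PEG, 10, 7 and 9 reads in degradable PEG and 36, 25 and 22 in Matrigel, and fell in degradable PEG against Matrigel (log2 -1.51 ± 0.44, adjusted p = 0.0462). The part of these cells in the Ccl20 result was not tested.

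Neither homeostatic mucosal chemokine was called in the main fit, with edgeR, TMM scaling, the filter on low counts, all 9 libraries and no block. Ccl28, a ligand of Ccr10 and Ccr3 at chr13:119623819-119654359 on the plus strand, had 22.9, 20.9 and 23.9 CPM in non-degradable PEG, 17.9, 17.4 and 22.3 CPM in degradable PEG and 24.7, 18.9 and 23.8 CPM in Matrigel. All 3 matrices overlapped. Its 95% confidence interval of the log2 fold change was -0.27 to 0.28 for non-degradable PEG against Matrigel, -0.50 to 0.05 for degradable PEG against Matrigel and -0.04 to 0.51 for non-degradable against degradable PEG (adjusted p = 0.977, 0.273 and 0.413, in that order). The Ccl28 window (chr13:119623569-119623818, plus strand) is shown for contrast, with its single match to the wide kappa-B-like form at bases -64 to -55 in capitals and none to the narrow form:
Ccl28: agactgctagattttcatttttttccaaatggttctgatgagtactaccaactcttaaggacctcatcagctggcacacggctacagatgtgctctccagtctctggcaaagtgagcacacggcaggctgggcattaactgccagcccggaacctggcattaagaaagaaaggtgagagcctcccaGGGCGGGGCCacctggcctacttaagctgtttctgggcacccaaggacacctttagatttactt

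Ccl25, the ligand of Ccr9 that guides T cells to the small intestine, lies at chr8:4325210-4360020 on the plus strand. It had 32.7, 26.4 and 27.3 CPM in non-degradable PEG, 20.0, 21.9 and 17.5 CPM in degradable PEG and 34.7, 21.4 and 22.2 CPM in Matrigel. All 3 non-degradable PEG libraries were above all 3 degradable PEG libraries, and Matrigel spanned both, with replicate 1 the highest of the 9. The log2 fold change was 0.54 for non-degradable against degradable PEG (95% confidence interval 0.16 to 0.92, adjusted p = 0.191), and this passed only without Matrigel replicate 1 among the single libraries left out (adjusted p = 0.0421), and with no filter on low counts (adjusted p = 0.0261). Against Matrigel it was 0.14 in non-degradable PEG (-0.23 to 0.52, adjusted p = 0.601) and -0.40 in degradable PEG (-0.78 to -0.01, adjusted p = 0.168). The test over all 3 matrices did not call Ccl25 (adjusted p = 0.105), but 4 of 15 alternatives did, the replicate block among them. Neither of the gene's 2 RefSeq promoter windows held a kappa-B-like match. Exons of Ccl25 share 204 bases with Elavl1 on the opposite strand, which had 4150 to 5554 reads a library, and the sources used here do not say whether reads were assigned by strand.

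Cx3cl1, also called fractalkine, is held on the membrane by a mucin stalk, and its receptor Cx3cr1 marks intestinal macrophages. The gene, at chr8:94772009-94782427 on the plus strand, had 41.0, 32.7 and 54.2 CPM in non-degradable PEG, 34.8, 40.7 and 46.8 CPM in degradable PEG and 29.7, 28.8 and 32.6 CPM in Matrigel. Each PEG library exceeded each Matrigel library, and the PEG gels overlapped each other. The log2 fold change against Matrigel was 0.49 ± 0.16 in non-degradable PEG (adjusted p = 0.0590) and 0.42 ± 0.16 in degradable PEG (adjusted p = 0.117). With the replicate block, the comparison of non-degradable PEG with Matrigel passed (log2 0.47, adjusted p = 0.0152), as it did without replicate 2 of non-degradable PEG (adjusted p = 0.0137) or replicate 1 of degradable PEG (adjusted p = 0.0437). Degradable PEG against Matrigel passed without replicate 3 of non-degradable PEG (adjusted p = 0.0420). Between non-degradable and degradable PEG the log2 fold change was 0.07, with a 95% confidence interval of -0.29 to 0.42. The RefSeq promoter window of Cx3cl1 (chr8:94771930-94772179, plus strand) held no kappa-B-like match. The annotated start of the gene, base 94772009, falls inside this window. Part of the stretch before that start was therefore not searched.

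**Figure D2:**
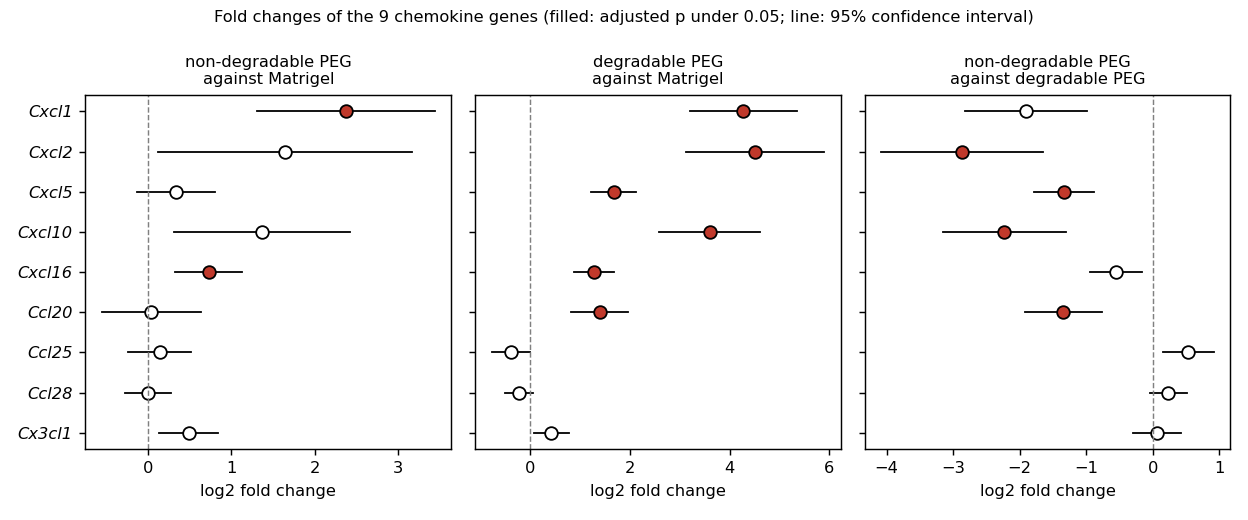
Log2 fold change of the 9 chemokine genes in the 3 comparisons, with 95% confidence intervals as lines and filled points where the adjusted p was under 0.05. The 6 filled points for degradable PEG against Matrigel lie between 1.28 and 4.51, and the 4 filled points for non-degradable against degradable PEG lie between -2.87 and -1.34.

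**Figure D3:**
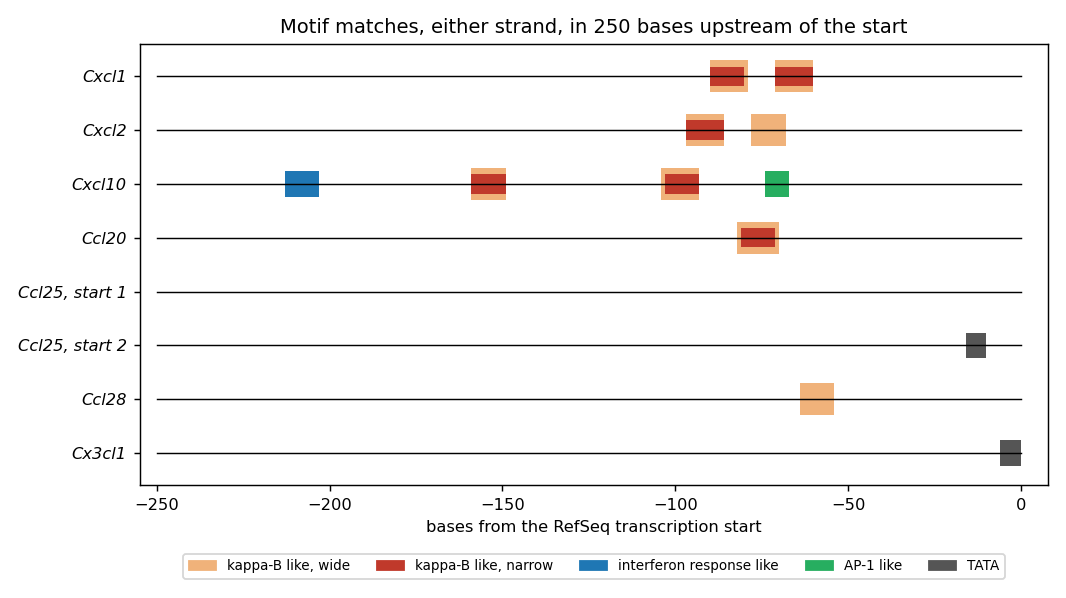
Motif matches on either strand in the 250 bases before the RefSeq start of 7 chemokine genes, by distance in bases from the start. Blocks stand for the motifs in the legend, with the narrow kappa-B-like form drawn inside the wide one. Cxcl1, Cxcl2, Cxcl10 and Ccl20 hold the narrow form, and Ccl25, Ccl28 and Cx3cl1 do not.

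In the test over all 3 matrices, 6 of the 9 genes differed, Cxcl1, Cxcl2, Cxcl5, Cxcl10, Cxcl16 and Ccl20, with adjusted p between 5.08e-04 and 0.00443, where 16.3% of all tested genes passed. Ccl25, Ccl28 and Cx3cl1 had adjusted p of 0.105, 0.310 and 0.0994. The 4 searched genes that passed this test held the narrow kappa-B-like form, and the 3 searched genes that did not pass lacked it. This is a description of 7 promoters, and no match says only that these letters are absent from this window. The windows of Cx3cl1, Cxcl1 and Cxcl2 run past the annotated start of their gene.

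Each gene's place among the 9 was compared on a scale per length, CPM per kilobase of merged exons. In Matrigel, Cxcl16 was the highest at 9.37 ± 2.73 CPM per kilobase, followed by Cx3cl1 at 7.73 ± 0.506, Ccl28 at 4.64 ± 0.645 and Ccl25 at 3.50 ± 0.999 (SD, n = 3). Below them stood Ccl20 at 1.59 ± 0.285, Cxcl5 at 1.02 ± 0.250, Cxcl1 at 0.656 ± 0.178, Cxcl10 at 0.285 ± 0.120 and Cxcl2 at 0.136 ± 0.102. In that order, the pairs Cxcl16 and Cx3cl1, Ccl28 and Ccl25, Cxcl5 and Cxcl1, and Cxcl10 and Cxcl2 differed by less than their summed SDs. In non-degradable PEG the order was nearly the same, with Cxcl16 at 15.6 ± 2.68 and Cxcl2 the lowest at 0.437 ± 0.306, and Cxcl1 at 3.41 ± 2.26 stood within its spread of both Ccl25 above it and Ccl20 below it. In degradable PEG, Cxcl16 led at 22.8 ± 1.34 and Cxcl1 was second at 12.8 ± 5.80, within the spread of Cx3cl1 at 10.4 ± 1.53. The other 6 genes, led by Ccl20 at 4.17 ± 1.11 and ending with Ccl25 at 2.66 ± 0.300, could not be ordered beyond the spread of neighbours. The length of Ccl25 includes exons of distant isoforms, which lowers its value on this scale.

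Within a PEG gel most of the 9 genes were high or low in the same library. Replicate 3 was the highest of non-degradable PEG for 8 of the 9 genes and replicate 2 the lowest for 8, against 39.1% and 35.5% of all tested genes. In degradable PEG, replicate 1 was the lowest for 7 genes, against 35.8% of all tested genes, and the highest was replicate 3 for 5 and replicate 2 for 4. In Matrigel, replicate 1 was the lowest for 6, against 39% of all tested genes, while the highest library was replicate 1 for 2 genes, replicate 2 for 3 and replicate 3 for 4. Mitochondrially encoded transcripts took 4.51% of reads in non-degradable PEG replicate 3, the highest of the 9 libraries, and 3.20% in degradable PEG replicate 1, the lowest of its gel. Their part in these orders was not tested.

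**Figure D4:**
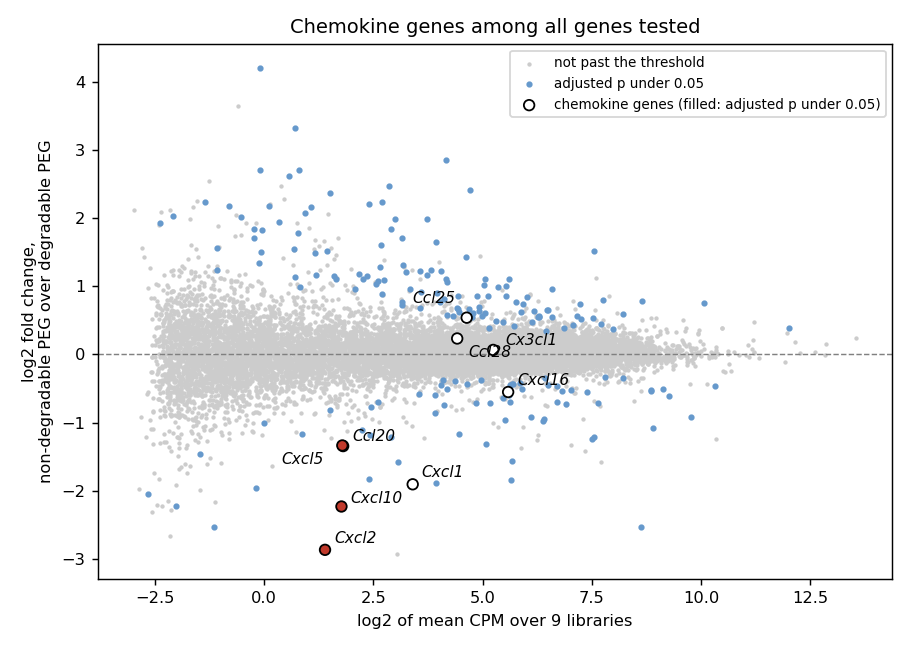
Log2 fold change of non-degradable over degradable PEG against the log2 of mean CPM over 9 libraries, for the 14870 tested genes, with coloured points where the adjusted p was under 0.05. The filled circles of Cxcl2, Cxcl10, Cxcl5 and Ccl20 lie at -2.87, -2.23, -1.34 and -1.34, Cxcl1 lies at -1.91 without passing, and Ccl25, Ccl28 and Cx3cl1 lie between 0.07 and 0.54.

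Few other chemokine genes were expressed. Of 30 other chemokine ligand genes, 15 had 0 reads in all 9 libraries and 4 passed the filter, Cxcl9, Ccl2, Ccl9 and Ccl27a. Ccl27a, a ligand of Ccr10, had 3.78, 4.52 and 4.47 CPM in non-degradable PEG, 3.84, 5.69 and 5.01 CPM in degradable PEG and 4.30, 3.60 and 4.01 CPM in Matrigel, where the matrices overlapped and no comparison was called. Ccl2, which attracts monocytes, had 23, 26 and 35 reads in non-degradable PEG, 32, 49 and 66 reads in degradable PEG and 8, 41 and 29 in Matrigel, and was not called (degradable PEG against Matrigel log2 1.11 ± 0.40, adjusted p = 0.102). Cxcl11, the third Cxcr3 ligand beside Cxcl9 and Cxcl10, had 7, 4 and 7 reads in non-degradable PEG, 8, 15 and 16 reads in degradable PEG and 1, 3 and 4 in Matrigel, too few to be tested. A count of 0 in a library leaves room for an expected count of up to about 3 reads.

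Receptors for the 9 ligands were at or near 0. Cxcr2, Cxcr3, Cxcr6, Ccr6 and Ccr3 had 0 reads in every library, Ccr9 had 2 reads and Ccr10 had 3 over all 9, and Cx3cr1 had at most 4 in a library. Of 22 receptor genes, only Cxcr4, the Cxcl12 receptor, passed the filter, with 4.47, 4.04 and 3.76 CPM in non-degradable PEG, 5.10, 4.997 and 3.98 CPM in degradable PEG and 4.76, 5.94 and 5.37 CPM in Matrigel, and edgeR and DESeq2 made no call (an unadjusted p under 0.05 only for non-degradable PEG against Matrigel). Of 14 blood cell markers, Ptprc, S100a9, Ncr1 and Cd52 had 0 reads in all libraries and 3 were tested. Their summed level over the list was 10.4 to 13.1 CPM in non-degradable PEG, 13.6 to 14.8 CPM in degradable PEG and 7.20 to 8.23 CPM in Matrigel. Cd14, a lipopolysaccharide co-receptor, was the largest part of it, at 5.69 to 7.22 CPM in non-degradable PEG, 9.36 to 10.3 CPM in degradable PEG and 3.81 to 5.14 CPM in Matrigel, and rose in both gels against Matrigel (adjusted p = 0.0216 and 6.68e-04). The integrin Itgam, carried by myeloid cells, rose in non-degradable PEG, with 2.77 to 3.83 CPM there, 1.63 to 2.404 CPM in degradable PEG and 1.24 to 1.64 CPM in Matrigel (log2 1.22 ± 0.21, adjusted p = 0.00311). Lyz2 and Laptm5, chosen after their values were seen and too low to be tested, had 7 and 3 reads summed over non-degradable PEG, 4 and 7 over degradable PEG and 35 and 27 over Matrigel. Among 10 mesenchymal markers, Col3a1, Dcn, Lum and Thy1 had 0 reads in every library, and the summed level, nearly all Vim, was 84.1 to 118 CPM in non-degradable PEG, 92.7 to 158 CPM in degradable PEG and 125 to 273 CPM in Matrigel. Col1a1, Pdgfra and Pdgfrb, named after their values were seen, had 91 to 250, 62 to 141 and 24 to 48 reads a library. Of 4 mesenchymal markers tested, 1 fell in non-degradable PEG against Matrigel, where 7.13% of all tested genes fell. Neither edgeR nor DESeq2 made another call (1 lower in degradable PEG at an unadjusted p under 0.05). The 6 endothelial markers summed to at most 0.743 CPM.

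NF-kB pathway genes, the main known inducers and feedback inhibitors of the inducible chemokines, were looked at as a list of 26, of which 25 were tested. In degradable PEG against Matrigel, 12 rose and none fell in edgeR (2 had an unadjusted p under 0.05 downward and DESeq2 called 0), with a list median log2 fold change of 0.34. Among all tested genes 7.42% rose and 4.79% fell in that comparison. In non-degradable PEG against Matrigel, 6 rose and 2 fell, with a list median of 0.13, where 9.71% of all tested genes rose and 7.13% fell. In non-degradable against degradable PEG, 3 were lower and none higher in edgeR, with a list median of -0.21, where 0.464% of all tested genes were lower. At an unadjusted p under 0.05, 11 were lower and none higher, and DESeq2 called 7 lower and none higher. The 3 edgeR calls were Tnf, Tnfaip3 and Rela, named after their values were seen.

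Tnf, the cytokine that activates NF-kB, had 7.56, 6.43 and 14.4 CPM in non-degradable PEG, 28.8, 30.2 and 46.2 CPM in degradable PEG and 0.999, 1.81 and 1.70 CPM in Matrigel, with no overlap between matrices. Its log2 fold change was 2.64 ± 0.34 for non-degradable PEG against Matrigel, 4.53 ± 0.35 for degradable PEG against Matrigel and -1.89 ± 0.29 between non-degradable and degradable PEG (adjusted p = 5.78e-04, 4.06e-05 and 0.0152, in that order). Tnfaip3, an inhibitor of NF-kB signalling that NF-kB itself induces, averaged 25.1 ± 4.96 CPM in non-degradable PEG, 62.2 ± 16.4 CPM in degradable PEG and 14.1 ± 1.70 CPM in Matrigel (SD, n = 3 each). It rose in both PEG gels against Matrigel and was lower in non-degradable than in degradable PEG (log2 -1.31 ± 0.18, adjusted p = 0.0128). Bcl3, a nuclear partner of NF-kB, rose by log2 1.25 in non-degradable and 1.73 in degradable PEG against Matrigel (adjusted p = 7.77e-04 and 1.71e-04). Birc3, an inhibitor of cell death, rose by log2 0.70 and 0.86 in the same comparisons (adjusted p = 7.17e-04 and 2.56e-04).

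Interferon pathway genes were looked at as a list of 23. Of 19 tested, 8 rose in non-degradable PEG against Matrigel, 5 in degradable PEG against Matrigel, and edgeR called no gene that fell and none between non-degradable and degradable PEG. Among all tested genes 9.71% rose and 7.13% fell in non-degradable PEG, and 7.42% rose and 4.79% fell in degradable PEG, each against Matrigel. Between the PEG gels, 0.814% of all tested genes were higher and 0.464% lower in non-degradable PEG. An unadjusted p under 0.05 was met by 2 genes that were lower in non-degradable PEG and 1 that was lower in degradable PEG than in Matrigel, and by 2 genes between the PEG gels. DESeq2 called 2, 0 and 0 of these. List medians were 0.25, 0.19 and -0.02 in that order of comparisons. Irf1, a transcription factor that acts on the Cxcl10 promoter, rose by log2 0.90 in non-degradable PEG against Matrigel and 1.53 in degradable PEG against Matrigel (adjusted p = 0.0207 and 0.00154). Stat2, part of the type I interferon signal, rose by log2 0.60 and 0.43 (adjusted p = 8.32e-04 and 0.00668), and the receptor chain Ifngr1 by 0.52 and 0.70 (adjusted p = 0.00928 and 0.00227). The 4 genes of the list that were not tested, Isg15, Gbp2, Gbp3 and Usp18, had at most 5, 5, 3 and 6 reads in a library. Ifit2, named after its values were seen, had 31.4 to 39.1 CPM in non-degradable PEG, 30.6 to 41.9 CPM in degradable PEG and 42.1 to 47.7 CPM in Matrigel. Of 6 tested IL-17 pathway genes, 1 rose in each gel against Matrigel, the receptor chain Il17rc in non-degradable PEG (log2 0.45, adjusted p = 0.0362) and the transcription factor Cebpd in degradable PEG (log2 0.91, adjusted p = 0.00404). Of all tested genes, 9.71% and 7.42% rose in the same comparisons.

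**Figure D5:**
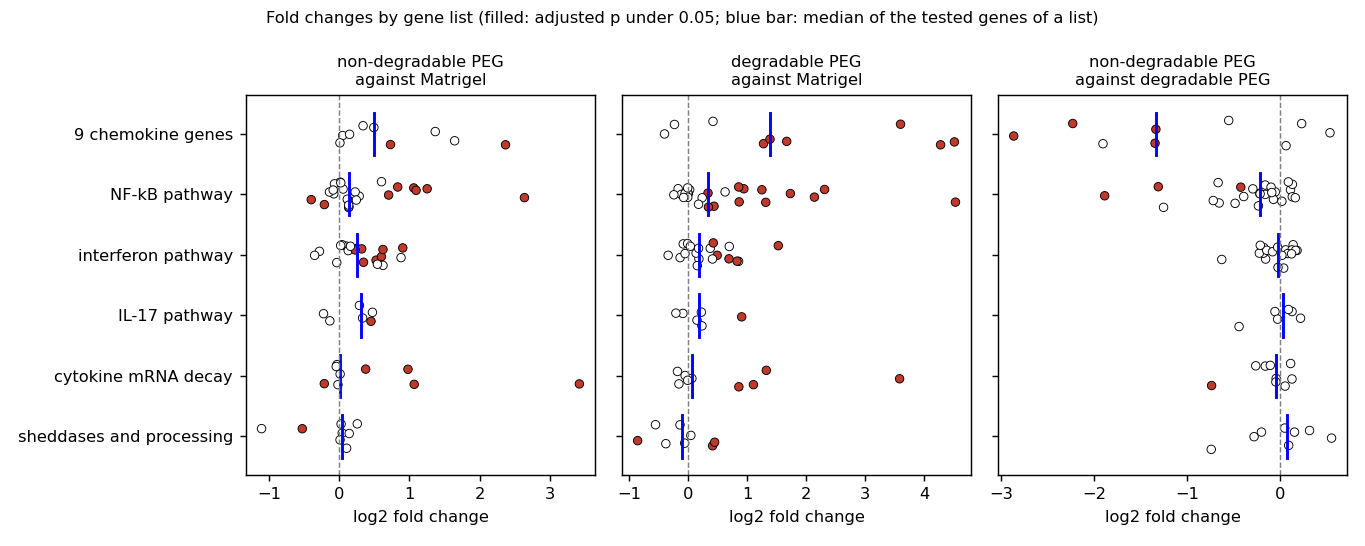
Log2 fold change of each tested gene of 6 lists in the 3 comparisons, filled where the adjusted p was under 0.05, with a blue bar at the list median; points are spread vertically for legibility only. The chemokine median lies at 0.49, 1.39 and -1.34, against 0.13, 0.34 and -0.21 for the NF-kB list.

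Messenger RNAs of inducible chemokines are removed by proteins that read AU-rich sequence in the 3′ untranslated region, chiefly those of the Zfp36 family. This feature was looked at after the values were seen, in the longest annotated region of each gene. The pentamer ATTTA occurred 11.8 times per kilobase in Cxcl1, 8.57 in Ccl20, 7.36 in Cxcl2, 4.50 in Cxcl5, 3.01 in Cxcl10, 1.41 in Cxcl16, 1.52 in Ccl28 and 0.534 in Cx3cl1, with none in Ccl25, against a median of 1.28 over 20644 genes. The longer ATTTATTTA was found in 6.27% of those genes and, among the 9, in Cxcl1 and Cxcl2, each shown with 1 site in capitals and a few bases on either side:
Cxcl1: tcctATTTATTTAtgta
Cxcl2: atgtATTTATTTATTTAttaa
Of 9 genes for cytokine mRNA decay, 4 rose and 1 fell in non-degradable PEG against Matrigel, 4 rose and none fell in degradable PEG against Matrigel (1 lower at an unadjusted p under 0.05, 0 in DESeq2), and 1 was lower in non-degradable than in degradable PEG. Among all tested genes 9.71% rose and 7.13% fell in the first comparison, and 7.42% rose and 4.79% fell in the second. In the third, 0.464% were lower. Zfp36 rose by log2 3.43 ± 0.26 for non-degradable PEG against Matrigel and 3.58 ± 0.26 for degradable PEG against Matrigel (adjusted p = 4.04e-05 and 4.06e-05). Zfp36l1 rose by 1.07 and 1.33 and Zfp36l2 by 0.98 and 0.86 in the same comparisons. Zc3h12a, a ribonuclease that cuts cytokine mRNAs, was the gene lower in non-degradable than in degradable PEG (log2 -0.74 ± 0.12, adjusted p = 0.0159).

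Proteases that release or trim chemokines were measured as a list of 8. Dpp4, which cuts the N-terminal end of Cxcl10, fell by 0.53 in non-degradable PEG and by 0.85 in degradable PEG on the log2 scale, each against Matrigel (adjusted p = 0.01997 and 0.00202). Rhbdf1 and Rhbdf2, partners that carry the sheddase Adam17 to the surface, rose in degradable PEG against Matrigel by log2 0.42 and 0.45 (adjusted p = 0.0225 and 0.0111). No other gene of the list was called in edgeR, Adam10 and Adam17, which shed Cxcl16 and Cx3cl1, included. Between the PEG gels 3 genes of the list had an unadjusted p under 0.05, and DESeq2 called 0. Among all tested genes 7.13% fell in non-degradable PEG, and 7.42% rose and 4.79% fell in degradable PEG, each against Matrigel.

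For the 6 genes that passed the test over all 3 matrices, the genes with the most similar pattern were found by the root mean square difference of log2 CPM, centred and scaled to unit SD, over the 9 libraries. Cxcl1 was nearest to Nfkbia (0.135), Tnf (0.135) and Rnf39 (0.147) among 10648 candidates with a mean of at least 5 CPM. Nfkbia, the NF-kB inhibitor that NF-kB induces, averaged 58.6 ± 26.6 CPM in non-degradable PEG, 139.8 ± 37.1 CPM in degradable PEG and 28.1 ± 5.21 CPM in Matrigel. The nearest genes of Cxcl2 were Tuft1 (0.194), Tnfaip3 (0.212) and Polg2 (0.213), and those of Cxcl10 were Tuft1 (0.104), Map3k14 (0.139) and Lmna (0.159). For Cxcl5 they were Dus4l (0.220), Bok (0.221) and Zc3h12a (0.227), for Cxcl16 Tnfrsf12a (0.157), Areg (0.158) and Epha2 (0.163), and for Ccl20 A530084C06Rik (0.131), Krt18 (0.218) and Nfkbib (0.222). A likeness over 9 libraries of 3 matrices describes these libraries only.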

How the data were processed

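RNA from whole colonies was purified with RNeasy Micro columns and made into libraries with the TruSeq stranded mRNA kit, per the labels' protocols. Reads were trimmed with cutadapt 1.3, aligned with STAR 2.4.2a and counted with HTSeq 0.6.1, with genome build GRCm38, per the submitters' processing notes; the annotation and strand setting of the counting were not given in the sources used here. The deposited files hold raw counts per Ensembl gene, and 5 tally rows that name no gene were removed. Raw reads were not analysed here.

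Counts of all 9 libraries were fitted together in R 4.3.3 with edgeR 4.0.16, with 1 mean per matrix, filterByExpr, TMM scaling and quasi-likelihood F tests. P-values were adjusted by Benjamini and Hochberg over the 14870 genes tested. The residual degrees of freedom were 6, the median prior degrees of freedom 5.17 and the biological coefficient of variation 11.0%. Standard errors of log2 fold changes were derived from the F statistic (median 0.112), and 95% intervals cover the spread between libraries only. The fit was also run on simulated counts with set changes in non-degradable PEG. These counts held no replicate effect, so that run cannot speak to differences tied to the replicate number. With 3 libraries against 3, an exact permutation test of a single gene cannot go below p = 0.1.

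Symbols, coordinates and merged exon lengths came from GENCODE release M21, and promoters from RefSeq on GRCm38.p6, both on the build of the counts. The chemokine genes and the other gene lists were chosen with earlier results of these data known. Of each other list, at most the 4 called genes with the smallest p over all 3 matrices were named, except where stated, and every tested chemokine ligand and receptor could be named. Likeness was ranked among genes averaging 5 CPM or more, 3 per member.

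Alternatives were relative log expression and upper-quartile scaling, no filter or a mean of 1 CPM, DESeq2 1.42.0, only the 2 groups compared, the replicate number as a block, and leaving out each library. Deviations from the matrix means of same-numbered libraries correlated at 0.331, 0.176 and 0.186 between non-degradable PEG and Matrigel, so their shared numbers were taken as pairs, from the data and not from a stated batch, and blocked values stand beside the results they change. The other comparisons were not treated as paired. For degradable PEG against Matrigel the same-numbered correlations were 0.258, 0.0712 and 0.226. There, as for non-degradable PEG against Matrigel, 3 of 3 libraries were closest to their own number. Blocked values of those other comparisons are given further below.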

Additional observations from a re-analysis of the deposited data

How the results depend on the processing

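All 6 calls for degradable PEG against Matrigel, and that of Cxcl1 for non-degradable PEG against Matrigel, kept their direction and stayed called under every alternative run, and the number of the 9 genes called in degradable PEG against Matrigel was 6 to 7 throughout. Of the alternative values of the 9 genes, 507 kept direction and side of the threshold, 32 passed it anew, 19 lost it and 9 changed sign. With no filter on low counts, 5 of the 9 were called for non-degradable PEG against Matrigel (2 with the filter, adding Cxcl2, Cxcl10 and Cx3cl1) and 7 between the PEG gels (4 with it, adding Cxcl1, Cxcl16 and Ccl25), and 521 genes in all between the PEG gels, against 190 with it. DESeq2 called 511 genes there. Cx3cl1 in non-degradable PEG against Matrigel passed in DESeq2 (adjusted p = 0.0240), and in degradable PEG with only those groups in the fit (adjusted p = 0.0423). The cause of these shifts was not tested.

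With the replicate block, 3877 genes and 5 of the 9 were called for non-degradable PEG against Matrigel (2504 genes without it), 2783 genes for degradable PEG against Matrigel (1815 without it), 542 between the PEG gels and 3894 over all 3 matrices (2424 without it). In the comparisons not treated as paired, same-numbered deviations correlated at 0.0712 to 0.258 (degradable PEG against Matrigel, 3 of 3 libraries closest to their own number) and at 0.0197 to 0.511 (between the PEG gels, 2 of 3). There the block added Cx3cl1 in degradable PEG against Matrigel (adjusted p = 0.0307) and Cxcl1 between the PEG gels (adjusted p = 0.00311), and over all 3 matrices it added Ccl25 (adjusted p = 0.0367) and Cx3cl1 (adjusted p = 0.0246). Beyond these and the values already given, it changed no call of the 9 genes.

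Leaving out 1 library gave 1189 to 3247 called genes and 1 to 4 of the 9 for non-degradable PEG against Matrigel, 1086 to 2395 genes and 6 to 7 of the 9 for degradable PEG against Matrigel, 19 to 242 genes and 0 to 5 of the 9 between the PEG gels, and 1507 to 3109 genes and 6 to 7 of the 9 over all 3 matrices. Leaving out replicate 2 of degradable PEG gave the 19, and leaving out replicate 1 of non-degradable PEG gave 28. Signs turned for values near 0. Ccl28 in non-degradable PEG against Matrigel was -0.0063 with no filter, -0.10 without Matrigel replicate 2, and -0.0080 and -0.037 without replicates 1 and 3 of non-degradable PEG (highest single-library value 0.076). Ccl20 in the same comparison was -0.053 and -0.0092 without Matrigel replicates 1 and 3, and -0.23 without replicate 3 of non-degradable PEG (highest 0.23). Cx3cl1 in non-degradable against degradable PEG was -0.14 without replicate 3 of non-degradable PEG and -0.043 without replicate 1 of degradable PEG (highest 0.23). Depth limits Cxcl2 most, with 2 to 22 reads per Matrigel library, and a library left out leaves its matrix with 2.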
